A study of Callithrix jacchus with 4 samples.

Results

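Molecular chaperones of the heat shock and DNAJ families were followed through 7 annotated cell types of the marmoset primary visual cortex (V1), in injured tissue and in control tissue. The members were all genes listed in both deposited UMI tables whose symbol starts with HSPA, HSPB or HSP90 or with DNAJA, DNAJB or DNAJC and a number, together with *HSPD1* and *HSPH1*. This gave 57 of the 16383 genes listed in both tables. The tables named 51 of them by symbol and 6 by Ensembl identifier, which were matched to a symbol through an Ensembl gene name table and not checked by sequence: *HSP90AA1*, *HSPA4*, *DNAJB6*, *DNAJC14*, *DNAJC17* and *DNAJC19*. Another 6 genes with such symbols were listed for the injured cohort and not for the control (*HSPB1*, *HSPB3*, *HSPB7*, *HSPA2*, *DNAJC4* and *DNAJB8*) and were no members. The stress-inducible HSP70 genes *HSPA1A* and *HSPA1B*, the HSP90 gene *HSP90AB1* and the mitochondrial co-chaperonin *HSPE1* were not analysed here.

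The injured cohort was made up of adult marmosets whose V1 had received intracortical injections of endothelin-1 (ET-1), a vasoconstrictor peptide that produces a focal ischaemic stroke, and was collected 7 days later. It consisted of 3 single-nucleus libraries, 1 for each animal: injured replicate 1 (F1619), replicate 2 (F1565) and replicate 3 (F1711). The control cohort was a single library that pooled V1 nuclei of 3 adult marmosets without injury, so its animals could not be separated. Injured nuclei were isolated by sucrose ultracentrifugation, whereas control nuclei were lysed with a different kit, sorted by flow cytometry on a DNA stain and sequenced on another platform. Doublets were removed with Scrublet in the injured cohort and by limits on genes per nucleus in the control, so injury and protocol cannot be told apart in any injured-to-control difference. All tests rested on the spread among the 3 injured animals, and the spread of the control was not measured.

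The injured libraries held 7500, 12527 and 9510 nuclei and the control library 8610, with 35737777, 48722394, 42956736 and 22832703 UMIs. A nucleus held a median of 4504.5, 3531 and 4229.5 UMIs in injured replicates 1, 2 and 3, against 2117 for control nuclei. Control sums were thin for 3 cell types, with 171 oligodendrocyte precursor (OPC), 129 microglial and 181 endothelial (Endo) nuclei, in which 1 UMI was worth 5.35, 8.03 and 4.90 CPM (UMIs of a gene per 1000000 UMIs of its library and cell type). The annotated types were those of the authors. Of their defining markers, 32 of 33 in the injured cohort and 31 of 32 in the control were highest in their own type. The authors assigned the types by these markers, so this is no independent check. The exceptions were the microglial marker *GPR34*, highest in injured OPC, and the endothelial marker *FLT1*, highest in control microglia. In control Endo the 3 endothelial markers summed to 848 CPM, below the 6 astrocyte markers (1171) and the 6 excitatory neuron markers (1210). Between 15 and 27 barcodes were shared by any pair of libraries, at most 0.302% of the smaller. Both tables also differed in which genes received reads: 456 of the 16383 shared genes had 0 UMIs in all injured nuclei although 167 of these had over 100 control UMIs. No member was at 0 in the injured cohort, but a difference in read assignment for a single gene cannot be told apart from a cohort difference.

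Chaperones bind unfolded stretches of other proteins and so prevent aggregation and help folding. HSP70 proteins do this in cycles of ATP hydrolysis that are started by DNAJ (HSP40) co-chaperones and reset by nucleotide exchange factors such as HSP110, and HSP90 proteins act later on a narrower set of client proteins. Each compartment has its own set: HSPA8 and HSP90AA1 in the cytosol, HSPA5 (BiP) and HSP90B1 (GRP94) in the endoplasmic reticulum (ER), HSPA9 and HSPD1 in mitochondria. Cytosolic members are induced by heat shock factor when cytosolic proteins misfold, and ER members by the unfolded protein response when secretory proteins do. Small heat shock proteins hold unfolded proteins without ATP and are prominent in glia and vessels. Nuclear RNA was measured here, not protein.

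In the injured cohort the ER chaperones *HSPA5* and *HSP90B1* were called higher in the largest number of cell types, followed by the HSP110 gene *HSPH1*. Most other members were not called in any type. A gene was called changed at an adjusted p (edgeR's quasi-likelihood test, Benjamini-Hochberg over all genes tested in that cell type) below 0.01, with a natural-log fold change beyond 0.25 and a UMI in at least 10% of nuclei of either cohort. Adjusted p-values in the text are from this test unless another is named. In excitatory neurons (ExN) 6 of 55 tested members were called, 10.9% against 3.85% of all genes tested, and all 6 were higher (2.6% of genes were called in that direction): *HSPA5*, *HSP90B1*, *HSPH1*, *HSPD1*, *DNAJB14* and *DNAJB2*. In inhibitory neurons (InN) *HSPA5*, *HSP90B1* and *HSPH1* were called, 3 of 51 or 5.88%, against 3.41% of all genes.

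Among glia, astrocytes (Astro) had 1 called member of 49, *HSPA5*, 2.04% against a background of 1.5%. Oligodendrocytes (Oligo) had 2 of 48, *HSPA5* and *HSP90B1*, 4.17% against 0.774%. In OPC 0 of 47 members were called against 0.0697% of genes, and in microglia 0 of 53 against 0%. Those 2 zero counts stood beside 10 members at an unadjusted p below 0.05 in OPC and 9 in microglia, and DESeq2 called 0 and 2. Here and below, counts at an unadjusted p below 0.05 within single cell types come without the share of all genes at that limit. They are therefore no result about the genes counted. Endothelial cells had 5 called members of 53, 9.43% against 6.18%: *HSPA5*, *HSP90B1*, *HSPH1* and *HSPA12B* were higher (4.19% of genes) and *HSPB11* was lower (1.99%).

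At a wider adjusted p limit of 0.05 the counts were 4 members in Astro (background 7.16%), 15 in ExN (12.1%), 10 in InN (11%), 4 in Oligo (4.32%), 1 in OPC (1.19%), 1 in microglia (2.58%) and 13 in Endo (13.6%). As shares of the tested members these were 8.16%, 27.3%, 19.6%, 8.33%, 2.13%, 1.89% and 24.5%. Only in ExN, InN and Endo did lower members pass this limit, 6, 3 and 1 of them, against 5.23%, 4.82% and 4.48% of genes. The counts at 0.01 depended on single animals. Without injured replicate 1 the ExN count was 2 and the Endo count 3. Leaving out replicate 2 gave 8 in ExN, 9 in InN, 12 in Endo, 4 in Astro, 3 in OPC and 2 in microglia, and leaving out replicate 3 gave 8 in ExN, 12 in Endo, 2 in Astro and 1 in OPC. Counts over all genes moved with them: without replicate 2 they went from 443 to 1541 in InN, from 816 to 1617 in Endo, from 187 to 716 in Astro, from 8 to 820 in OPC and from 0 to 395 in microglia, and without replicate 1 from 582 to 77 in ExN. No count over all genes is given for the fits without replicate 3, for ExN without replicate 2 or for Endo without replicate 1. Those member counts are therefore no result about the members.

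**Figure D1:**
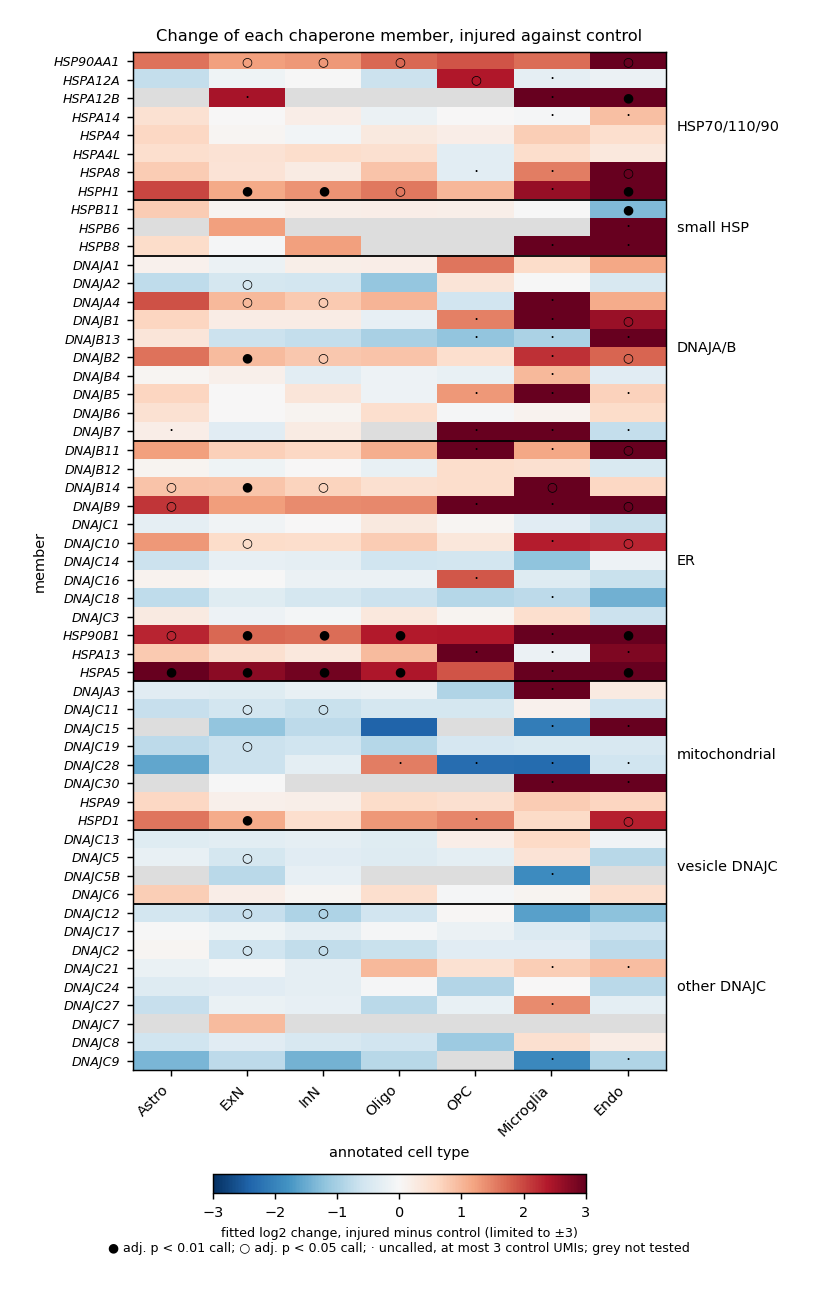
Fitted log2 change, injured minus control, of the tested members (rows, by compartment) in the 7 cell types (columns), with colour limited to 3 in either direction. Filled circles mark calls at an adjusted p below 0.01 and open circles those below 0.05; small dots mark uncalled values resting on at most 3 control UMIs, and grey cells were not tested. The *HSPA5* and *HSP90B1* rows are red in all 7 columns.

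*HSPA5* encodes BiP, the HSP70 of the ER lumen and the protein that holds the unfolded protein response sensors inactive until it is drawn away by unfolded clients. In Astro its level was 159.8, 219.7 and 158 CPM in injured replicates 1, 2 and 3 against 21.96 in the control (19 UMIs). ExN had 66.0, 68.3 and 62.5 CPM against 10.9 (186 UMIs), and InN had 76.0, 87.4 and 84.9 against 11.99 (37 UMIs). Every injured library lay above the control in these types, and the injured neuronal libraries lay close together. The log2 changes were 3.14 ± 0.35 in Astro (standard error of the fit, adjusted p = 0.00362), 2.71 ± 0.16 in ExN (0.000755) and 2.89 ± 0.23 in InN (0.000116).

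The same gene stood at 191, 187 and 148 CPM against 35.2 in Oligo (45 UMIs), a log2 change of 2.42 ± 0.24 (adjusted p = 0.0041). Endothelial libraries held the highest levels, 471, 449 and 392 CPM against 19.6 (4 UMIs), a change of 4.61 ± 0.41 (adjusted p = 0.000613). For these 5 calls the adjusted p held in each of 10 alternative fits, the highest being 0.0099. In the fit with thinned nuclei the ExN and InN calls were nevertheless lost, because a UMI was found in too few nuclei. OPC libraries had 184, 359 and 272 CPM against 80.2 (15 UMIs), and the change of 1.89 ± 0.51 was not called (adjusted p = 0.107). Microglia had 203, 402 and 220.0 CPM against 16.1, which was 2 UMIs, so the ratio of 16.2 had a 95% counting interval of 4.49 to 134 and an adjusted p of 0.0935. In both uncalled types all injured libraries were nevertheless above the control library, and there DESeq2 called *HSPA5* in microglia (adjusted p = 0.004).

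*HSP90B1* encodes GRP94, the HSP90 of the ER, which folds integrins, Toll-like receptors and other secretory clients. Its ExN levels were 93.1, 105 and 113 CPM against 34.2 in the control (584 UMIs). InN levels were 89.3, 102 and 107 CPM against 33.4 (103 UMIs). In Oligo the injured libraries had 194, 234 and 197 CPM against 43.1 (55 UMIs). No injured library overlapped the control, and the called log2 changes were 1.72 ± 0.17 in ExN (adjusted p = 0.00196), 1.68 ± 0.20 in InN (0.000834) and 2.37 ± 0.22 in Oligo (0.0035). The InN call was lost with thinned nuclei, because a UMI was found in too few nuclei. Its adjusted p was at most 0.003 in the 10 alternative fits. Endo had 413, 401 and 472 CPM against 53.9 (11 UMIs), a change of 3.12 ± 0.34 (adjusted p = 0.000863). Astro, with 90.6, 147 and 88.5 CPM against 24.3 (21 UMIs), passed the wider limit alone (2.27 ± 0.43, adjusted p = 0.0177), and was called without replicate 2 or without replicate 3. For OPC, 137, 279 and 205 CPM stood against 42.8 (8 UMIs, 2.41 ± 0.61, adjusted p = 0.0973). In microglia 162, 313 and 200.2 CPM stood against 3 control UMIs, a ratio of 8.83 with a counting interval of 3.02 to 42.8 (adjusted p = 0.103), and there DESeq2 called the gene (adjusted p = 0.00763). Replicate 2 was the highest injured library in OPC and in microglia.

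**Figure D2:**
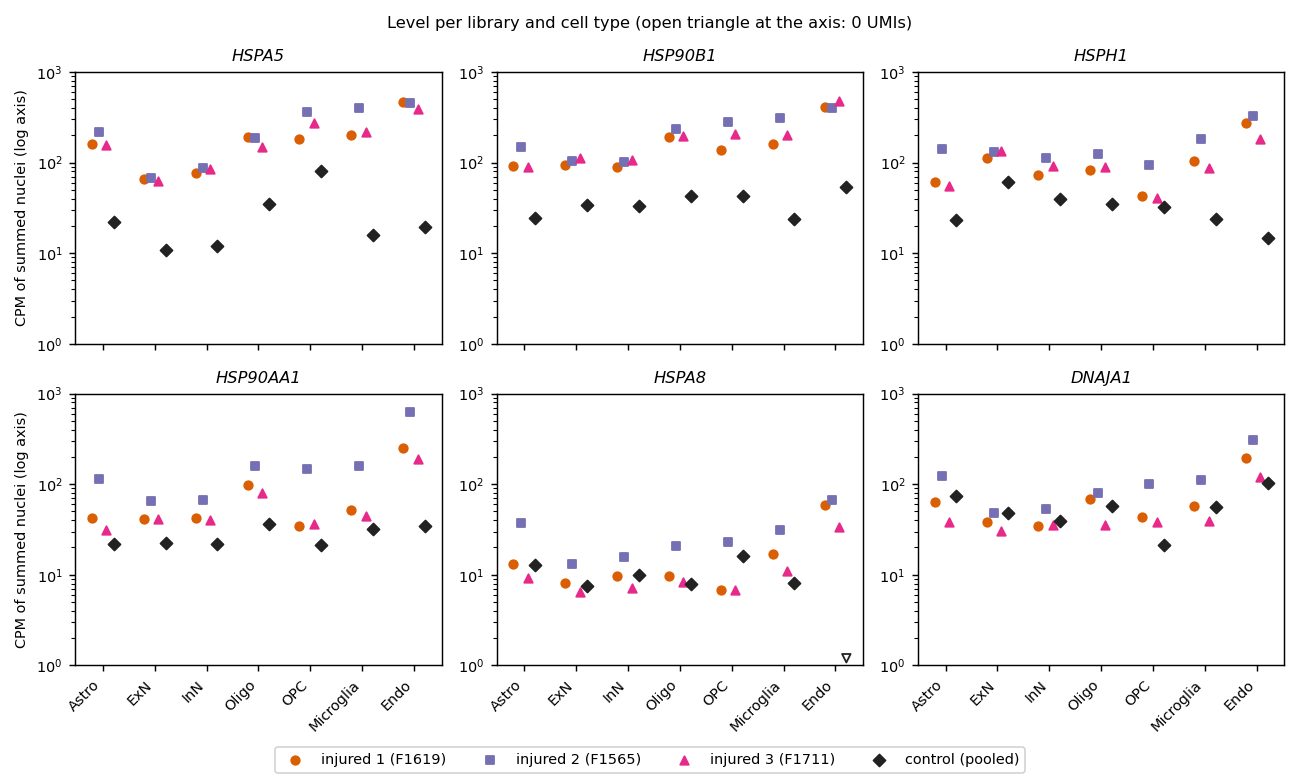
Level in CPM (log axis) of 6 members in each cell type, 1 point per library, for the 3 injured libraries and the pooled control library. For *HSPA5* and *HSP90B1* all injured points lie above the control point in every cell type, whereas the *HSPA8* and *DNAJA1* points of the cohorts overlap in most types.

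Among the other members of the ER lumen *DNAJC3* had the most control UMIs (1263). *DNAJB9*, *DNAJB11*, *DNAJC10* and *HSPA13* had 121, 217, 393 and 235 over all cell types. *DNAJB9* (ERdj4), an ER DNAJ protein that is a transcriptional target of the unfolded protein response, had 29.0, 24.6 and 31.8 CPM in Astro against 6.94 in the control (6 UMIs, 2.15 ± 0.45, adjusted p = 0.025). In ExN it had 13.3, 10.02 and 12.5 CPM against 5.38 (92 UMIs, 1.26 ± 0.25, adjusted p = 0.0153), but it missed the requirement of a UMI in 10% of nuclei. In Endo it had 56.7, 40.1 and 54.8 CPM against 1 control UMI, a ratio of 10.1 with a counting interval of 1.81 to 401 (adjusted p = 0.0195). The injured *DNAJB9* libraries were above the control in each of these types, and replicate 2 was the lowest of the 3.

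Endothelial levels of 2 further co-chaperones of BiP rested on 1 and 3 control UMIs. *DNAJB11* (ERdj3), which is secreted along with its clients, had 53.4, 47.2 and 46.5 CPM, a ratio of 9.86 (interval 1.76 to 390.1, adjusted p = 0.0107). *DNAJC10* (ERdj5), a disulphide reductase of misfolded proteins, had 69.9, 56.7 and 70.3 CPM, a ratio of 4.43 (interval 1.51 to 21.5, adjusted p = 0.018). *HSPA13* (STCH), an HSP70 without a client-binding domain, had 30.4, 31.2 and 31.7 CPM in Endo against 1 control UMI (adjusted p = 0.0355), with a UMI in too few nuclei. By contrast *DNAJC3* (p58IPK), an inhibitor of the kinase PERK that also acts as a BiP co-chaperone, had no call in any type: ExN levels were 40.8, 42.6 and 44.6 CPM against 51.5 (−0.15 ± 0.13, adjusted p = 0.412), and Endo levels 72.8, 85.6 and 82.0 against 137 (−0.64 ± 0.28, adjusted p = 0.143).

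Members anchored in the ER membrane gave 1 call. *DNAJB14*, a membrane-anchored DNAJ protein that works with cytosolic HSP70, rose in ExN from 86.8 CPM in the control (1484 UMIs) to 132, 149 and 145 CPM (0.83 ± 0.14, adjusted p = 0.00873). It passed the wider limit in Astro, where it had 108, 119 and 115 CPM against 68.2 (0.85 ± 0.22, adjusted p = 0.0485), and in InN, where it had 149, 155 and 130.5 against 98.2 (0.66 ± 0.17, adjusted p = 0.0246). In microglia 171, 181 and 153 CPM stood against 1 control UMI, a ratio of 20.95 with a counting interval of 3.76 to 828 (adjusted p = 0.0302). The ExN call was lost in 4 of 10 alternative fits, without replicate 1 (adjusted p = 0.0266), with library size alone (0.0112), thinned (0.0151) and with at most 2500 genes per nucleus (0.073). *DNAJC18*, another membrane DNAJ protein, was below the control in all 7 types, without a call. Its Endo levels were 33.7, 27.4 and 23.8 CPM against 83.3 (17 UMIs, −1.44 ± 0.39, adjusted p = 0.0341), with a UMI in too few nuclei to be called.

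Genes of ER folding and of the unfolded protein response whose symbols fall outside the member rule were taken as a separate list for context. Of 15 further ER folding genes, 13 were tested in InN and 14 in each of the other types. Calls were made for 2 in Astro, 3 in ExN, 2 in InN, 2 in Oligo and 5 in Endo, all higher, and for 0 in OPC and microglia, against 1.5%, 3.85%, 3.41%, 0.774% and 6.18% of all genes in the first 5 types. The list had median log2 changes of 1.40 in Astro, 0.84 in ExN, 0.71 in InN, 1.42 in Oligo, 0.98 in OPC, 1.40 in microglia and 2.87 in Endo. *CALR*, the calcium-binding lectin calreticulin, rose in each of the 5 types with calls, by 3.18 in Astro, 2.90 in ExN, 2.94 in InN and 2.68 in Oligo on the log2 scale, with 2 control UMIs in Endo. *MANF*, a secreted factor that binds BiP, rose in Astro (3.12), ExN (1.995), InN (1.85) and, against 3 control UMIs, Endo. *CANX*, the membrane-bound relative of calreticulin, rose in ExN (1.68), Oligo (1.90) and Endo (2.48), and the disulphide isomerases *PDIA3* and *PDIA6* rose in Endo (1.46 and 1.52). Sensors and transcription factors of the unfolded protein response had 0 called genes at 0.01 in all 7 types, with 9 of 50 combinations of gene and type at an unadjusted p below 0.05. An adjusted p below 0.01 was given to 2 of them by edgeR, both for *ATF4*, and to 4 by DESeq2. The RNA of *XBP1*, a transcription factor of that response, was 15.1, 18.6 and 12.8 CPM in ExN against 10.6, with no call. *ATF4* had 0 UMIs in all injured nuclei and 301 in the control, and is one of the genes with no injured reads described above.

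Cytosolic HSP70, HSP110 and HSP90 genes gave 1 called member of 8 tested in ExN, 1 of 7 in InN, 2 of 8 in Endo and 0 in Astro, Oligo, OPC and microglia. *HSPH1* (HSP110), a nucleotide exchange factor and disaggregase partner of HSP70, accounted for 3 of these calls. In ExN it had 114, 129 and 135 CPM against 61.7 in the control (1055 UMIs), a change of 1.15 ± 0.16 (adjusted p = 0.00492). InN had 73.2, 111 and 92.6 CPM against 39.2 (121 UMIs, 1.35 ± 0.26, adjusted p = 0.0084). Endo had 273, 328 and 184 CPM against 3 control UMIs, a ratio of 17.6 with a counting interval of 6.01 to 85.3 (adjusted p = 0.00384). All injured neuronal and endothelial libraries exceeded the control, but each call was lost without 1 animal: the ExN and Endo calls without replicate 1 (adjusted p = 0.0157 and 0.0112) and the InN call without replicate 3 (0.0183) and thinned (0.0108). In Oligo, 82.5, 125 and 89.2 CPM against 35.2 passed the wider limit (1.59 ± 0.31, adjusted p = 0.0269). The remaining types were not called, with 61.2, 141 and 55.3 CPM against 23.1 in Astro, 42.5, 93.3 and 40.2 against 32.1 in OPC, and 105, 180.5 and 86.1 against 3 control UMIs in microglia.

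*HSP90AA1*, the stress-inducible cytosolic HSP90, passed the wider limit in 4 types and the 0.01 limit in none by edgeR on all nuclei of all 3 injured animals. DESeq2 gave it an adjusted p of 0.000682 in ExN and 0.00478 in Oligo, and edgeR gave 0.00257 in InN with at most 2500 genes per nucleus. Its levels in ExN were 41.5, 64.5 and 40.8 CPM against 22.6 (1.24 ± 0.31, adjusted p = 0.0336), and in InN 42.03, 66.7 and 40.6 against 22.04 (1.299 ± 0.33, adjusted p = 0.0273). Oligo had 97.0, 157 and 79.7 CPM against 36.0 (1.73 ± 0.42, adjusted p = 0.0453). Endo had 252, 621 and 191 against 34.3 (7 UMIs, 3.51 ± 1.0001, adjusted p = 0.0401). Injured replicate 2 was the highest library each time, by a margin that exceeded the gap between the other injured animals. Without it the changes were smaller and the adjusted p lower: 0.97 in ExN (0.00387), 0.996 in InN (0.000963), 1.40 in Oligo (0.0145) and 2.77 in Endo (1.58e-07). The wider limit was missed without replicate 1 in ExN (0.067) and Oligo (0.0639), and without replicate 3 the 0.01 limit was passed in ExN (0.00237) and Endo (2.62e-05). In Astro the levels were 42.5, 115 and 31.6 CPM against 21.96, and the change of 1.63 ± 0.84 did not pass (adjusted p = 0.232).

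*HSPA8* (HSC70), the constitutive HSP70 of the cytosol, overlapped between cohorts in Astro, ExN, InN and OPC. ExN libraries had 8.03, 13.0 and 6.402 CPM against 7.49 (0.42, adjusted p = 0.484), and Astro libraries 13.1, 37.6 and 9.13 against 12.7. In Endo 58.8, 67.2 and 33.3 CPM stood against 0 control UMIs, which made it at least 3.52-fold higher, taking 3 UMIs in the control Endo nuclei as the floor (adjusted p = 0.0373). HSPA4 and HSPA4L, the other cytosolic HSP110 proteins, gave no call: *HSPA4* had 106, 113 and 106 CPM in ExN against 113, and *HSPA4L* had 70.4, 85.8 and 84.3 against 64.5 (0.43 ± 0.17, adjusted p = 0.101). *HSPA8*, *HSP90AA1* and *HSPD1* have many near-identical pseudogene copies in primate genomes. Per the study's methods Cell Ranger was run with default counting, which drops reads that map equally well to several genes, so levels of these genes are uncertain where such copies are annotated.

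The HSP70-related genes *HSPA12A* and *HSPA12B*, which encode distant members with an atypical ATPase domain, passed a limit in OPC (*HSPA12A*, the wider limit) and in Endo (*HSPA12B*). *HSPA12B*, known from endothelium, had 84.3, 98.2 and 112 CPM in injured Endo against 1 control UMI, a ratio of 20.5 with a counting interval of 3.68 to 812 (adjusted p = 0.00388), a call lost by DESeq2 (adjusted p = 0.0205) and thinned (0.0235). It had no more than 2.92 CPM in any other type and was tested in 2 of them, ExN and microglia, without a call. The endothelial markers were also higher in injured Endo, at 3404, 3553 and 4096 CPM against 848 in the control. Whether the *HSPA12B* difference goes beyond that of the markers was not tested. *HSPA12A* had 100.4, 100.5 and 112 CPM in injured OPC against 21.4 in the control (4 UMIs, 2.41 ± 0.42, adjusted p = 0.0486). In neurons, where it was most abundant, its cohorts lay close: 160.3, 157 and 156 CPM in ExN against 186, and 201, 189 and 224 in InN against 220.1.

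The small heat shock group held the 1 decrease called among all members by the main test, although other fits called other decreases. DESeq2 called 2 lower members in ExN and 0 in Endo, and without replicate 2 there were 3 in InN. Calls over all genes also rose by DESeq2 in ExN and without replicate 2 in InN. *HSPB11* (IFT25), which despite its name is a subunit of the intraflagellar transport complex of cilia, fell in Endo from 171 CPM in the control (35 UMIs) to 67.8, 56.5 and 64.3 CPM (−1.32 ± 0.25, adjusted p = 0.0091). This call was lost in 5 of 10 alternative fits: without replicate 1 (adjusted p = 0.0184), by DESeq2 (0.0104), with library size alone (0.0102), with at most 2500 genes per nucleus (0.0125) and thinned (0.0291). Astro pointed the other way without a call, at 152, 121 and 163 CPM against 92.5 (0.77 ± 0.25, adjusted p = 0.085), and the fitted changes in the other 5 types were within 0.19 of 0. *HSPB8*, a partner of BAG3 in selective autophagy, was highest in Astro at 49.1, 54.0 and 42.8 CPM against 35.8 (0.55 ± 0.28, adjusted p = 0.228). *HSPB6* had 8 UMIs in the whole control library and is not described further.

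Among the 10 cytosolic and nuclear DNAJA and DNAJB co-chaperones 1 was called. *DNAJB2*, a neuronal DNAJ protein that directs clients to the proteasome, had 45.2, 41.4 and 49.0 CPM in ExN against 25.3 (432 UMIs, 0.95 ± 0.15, adjusted p = 0.0084). It also passed the wider limit in InN, with 40.4, 39.6 and 44.1 CPM against 25.3 (adjusted p = 0.0279), and in Endo, with 76.5, 71.1 and 79.3 against 24.5 (5 UMIs, 1.76 ± 0.41, adjusted p = 0.0195). The injured animals lay within 10 CPM of one another in each of these types, and the ExN call was lost without replicate 1 (adjusted p = 0.0405), with library size alone (0.0147), thinned (0.0176) and with at most 2500 genes per nucleus (0.0285). *DNAJA4*, a co-chaperone of HSC70, had 27.5, 30.8 and 29.4 CPM in ExN against 16.2 (0.97 ± 0.17, adjusted p = 0.0103) and 32.4, 34.4 and 31.4 in InN against 20.4 (0.79 ± 0.23, adjusted p = 0.041).

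*DNAJB1* (HSP40), the classical heat-inducible partner of HSP70, was near the control in neurons: ExN had 17.7, 19.9 and 16.2 CPM against 16.7, and InN 23.2, 22.3 and 19.8 against 20.1. In Endo it had 66.6, 49.6 and 47.2 CPM against 2 control UMIs, a ratio of 5.34 with an interval of 1.47 to 44.2 (adjusted p = 0.0295). *DNAJA1*, the main farnesylated DNAJ protein of the cytosol, had 38.3, 48.3 and 30.8 CPM in ExN against 48.0 and 63.1, 124 and 38.4 in Astro against 74.0. The cohorts overlapped for it in both types. *DNAJA2* passed the wider limit downwards in ExN, at 36.7, 36.4 and 31.2 CPM against 54.6 (−0.54 ± 0.14, adjusted p = 0.0402).

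Of the 8 mitochondrial members 1 was called. *HSPD1* (HSP60), the chaperonin of the matrix, rose in ExN from 14.1 CPM (241 UMIs) to 27.9, 30.0 and 26.4 CPM (1.11 ± 0.17, adjusted p = 0.00723), a call that was lost without replicate 1 (adjusted p = 0.0356), with library size alone (0.0111), thinned (0.0143) and with at most 2500 genes per nucleus (0.0235). Its Endo levels of 145, 172 and 86.7 CPM against 29.4 (6 UMIs) passed the wider limit (2.32 ± 0.69, adjusted p = 0.0455). *HSPA9* (mortalin), the matrix HSP70, had 66.1, 55.4 and 59.5 CPM in ExN against 58.9 (0.15 ± 0.13, adjusted p = 0.442) and was not called in any type. *DNAJC19* and *DNAJC11*, which act at the inner membrane and in its contact sites with the outer membrane, were lower in ExN at the wider limit. *DNAJC19* had 33.4, 28.9 and 27.6 CPM against 50.6 (−0.64 ± 0.14, adjusted p = 0.0232), and *DNAJC11* had 75.4, 70.4 and 78.7 against 118 (−0.55 ± 0.11, adjusted p = 0.0189). In InN *DNAJC11* also passed that limit (−0.67, adjusted p = 0.0218).

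Vesicle and endosome DNAJC proteins had 0 called members at 0.01 in each type by edgeR and by DESeq2, with 6 of 24 combinations at an unadjusted p below 0.05. *DNAJC5* (cysteine string protein alpha), a synaptic vesicle chaperone of SNARE proteins, had 48.3, 47.6 and 44.8 CPM in ExN against 73.7 (−0.54 ± 0.12, adjusted p = 0.0221). *DNAJC6* (auxilin), which uncoats clathrin vesicles with HSC70, was most abundant in Oligo at 1041, 959 and 1086 CPM against 782, without a call.

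Of the other DNAJC proteins, *DNAJC2* and *DNAJC12* passed the wider limit downwards in both neuronal classes, and 0 of the group were called at 0.01 in any type, with 17 of 56 combinations at an unadjusted p below 0.05 and 1 at an adjusted p below 0.01 by DESeq2. *DNAJC2*, a ribosome-associated and chromatin-binding co-chaperone, had 73.7, 65.5 and 65.6 CPM in ExN against 112 (−0.60 ± 0.11, adjusted p = 0.0143) and 63.2, 70.9 and 70.1 in InN against 122 (−0.73 ± 0.16, adjusted p = 0.0142). *DNAJC12*, a co-chaperone of the aromatic amino acid hydroxylases, had 25.8, 21.3 and 26.8 CPM in ExN against 42.8 (−0.69, adjusted p = 0.0276) and 20.4, 16.9 and 18.8 in InN against 37.6 (−0.92 ± 0.23, adjusted p = 0.024). For both genes every injured library was below the control.

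Further low values sat among scarce transcripts of these groups, and none of them was called. *DNAJC15*, a mitochondrial import protein, had 1.57, 2.38 and 1.85 CPM in ExN against 4.92 (84 UMIs, −1.20 ± 0.32, adjusted p = 0.0377, with a UMI in too few nuclei) and 2.20, 1.37 and 1.19 in Oligo against 9.40 (12 UMIs, −2.39 ± 0.64, adjusted p = 0.0576). *DNAJC28*, also mitochondrial, had 4.67, 5.81 and 3.65 CPM in Astro against 15.0 (13 UMIs, −1.57 ± 0.53, adjusted p = 0.0948). The histone co-chaperone *DNAJC9* had 2.99, 2.58 and 2.96 CPM in ExN against 5.32 (−0.80 ± 0.25, adjusted p = 0.0629). Every injured library was below the control in these cases. Among OPC members with more than 3 control UMIs, the largest differences downwards were those of *DNAJC8*, a splicing-associated protein, with 26.5, 31.3 and 37.8 CPM against 74.9 (14 UMIs, adjusted p = 0.215), *DNAJA3* (−0.91, adjusted p = 0.366) and *DNAJC24* (−0.88, adjusted p = 0.192). *DNAJB13* in Oligo (−0.97, adjusted p = 0.266), *DNAJC5B* in ExN (−0.80, adjusted p = 0.183) and *DNAJC14* in microglia (−1.20, adjusted p = 0.42) were likewise not called.

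The size of these neuronal decreases moved with the scaling of the libraries. With TMM factors the median change of all genes tested was 0.00 in ExN. It was −0.11 there with library size alone, and the other types also shifted downwards, least in Oligo, from 0.02 to −0.07, and most in microglia, from 0.42 to 0.17. Member changes are given relative to the TMM scale throughout.

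The genes that regulate or assist cytosolic chaperones were mostly uncalled. Heat shock factor genes *HSF1*, *HSF2* and *HSF4* gave 0 calls of 2 or 3 tested in each type by edgeR and by DESeq2 (2 of 19 combinations at an unadjusted p below 0.05), and *HSF1* had 38.6, 36.9 and 36.5 CPM in ExN against 40.1. Among 16 HSP70 and HSP90 co-chaperones the ubiquitin ligase *STUB1* rose in ExN (1.59, adjusted p = 0.003), *SGTA* fell there (−1.03, adjusted p = 0.008), and the glucocorticoid-responsive immunophilin *FKBP5* fell in Endo (−1.64, adjusted p = 0.005). In ExN this was 1 higher and 1 lower of 16 tested, against 3.85% of all genes. In Endo it was 1 lower of 15, against 6.18%. Of 107 combinations of gene and type, 40 were at an unadjusted p below 0.05. At the wider limit 2 were higher in Astro (7.16% of genes), 2 in ExN (12.1%), 1 in microglia (2.58%) and 2 in Endo (13.6%). In ExN and in Endo 1 was lower at that limit. Of the TRiC chaperonin subunits only *CCT7* was called, in ExN (1.57), 1 of 7 tested against 3.85% of all genes. Their median log2 changes were 0.82 in Astro, 0.25 in ExN, 0.10 in InN, 0.42 in Oligo, 0.35 in OPC, 1.73 in microglia and 1.11 in Endo. Of 49 combinations, 26 were at an unadjusted p below 0.05. At the wider limit 3 were higher in Endo (13.6% of genes), 1 was higher and 1 lower in ExN (12.1%), and 2 were lower in InN (11%).

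Across cell types 46 members were tested in all 7. Of these, 11 had a fitted change above 0 in every type, against 18% of the genes tested in all 7, and 4 had one below 0 in every type, against 8.3% (*DNAJC14*, *DNAJC17*, *DNAJC18* and *DNAJC19*). A change above 1 in every type was fitted for 4 members, *HSPA5*, *HSP90B1*, *HSP90AA1* and *DNAJB9*, against 3.8% of all genes. *DNAJB9* had 0 control UMIs in OPC and microglia, where its fitted value is no bound.

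The question of cytosolic against ER members was addressed by their medians. The cytosolic set held the HSP70, HSP110, HSP90, small heat shock, DNAJA and DNAJB members of cytosol and nucleus. It left out 9 other cytosolic and nuclear DNAJC proteins, whose medians were below 0 in all 7 types (−0.71 in Endo, −0.17 in microglia). The ER set kept its DNAJC members, so the medians and sums below depend on this division. The median log2 change of the tested cytosolic members (21 genes in all) was 0.55 in Astro, 0.08 in ExN, 0.22 in InN, 0.20 in Oligo, 0.30 in OPC, 1.26 in microglia and 1.11 in Endo. The 13 ER members had medians of 0.78, 0.48, 0.33, 0.48, 0.54, 0.50 and 0.61 in the same order, and all genes had 0.05, 0.00, 0.00, 0.02, 0.17, 0.42 and 0.26. Cytosolic minus ER was thus below 0 in 5 types, between −0.40 in ExN and −0.11 in InN, and above 0 in microglia (0.76) and Endo (0.49). Summed levels, which the abundant genes dominate, gave another order in some types. In microglia the ER sum was 1.94 times the control (mean of the injured libraries) and the cytosolic sum 1.503 times, and the ER-to-cytosolic ratio was 1.41, 1.33 and 1.57 in the injured libraries against 1.10. The microglial control sums held only 75 ER and 68 cytosolic UMIs. No counting interval is given for them, so the order of the sums there is uncertain. In Astro the cytosolic sum was 1.40 times the control and the ER sum 1.28 times. The Astro ER-to-cytosolic ratio was 1.195, 0.879 and 1.265 in injured replicates 1, 2 and 3 against 1.173 in the control. Only replicate 2 lay below the control ratio, so the Astro order of the sums rested on that library. With members lacking control UMIs set to their lower bound the cytosolic median in microglia was 0.86. The sign of the Astro difference of −0.23 turned to 0.21 without replicate 3. Without that replicate InN was at −0.00077, and without replicate 2 microglia was at 0.40 and Endo at 0.32, while thinning nuclei to 1000 UMIs turned Oligo to 0.0908 and microglia to −2.58.

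Within the ER members the lumenal proteins had the higher median in every type. For 7 lumenal members, a division made after the values were seen and therefore a description, the medians were 1.31 in Astro, 0.72 in ExN, 0.61 in InN, 1.09 in Oligo, 2.41 in OPC (0.74 with bounds), 2.36 in microglia and 3.12 in Endo. The other ER members had medians of −0.09, −0.11, −0.08, −0.20, 0.30, −0.36 and −0.55. Mitochondrial members had medians between −0.52 in Astro and 0.46 in Endo, and vesicle members between −0.42 in ExN and 0.25 in microglia. The other cytosolic and nuclear DNAJC proteins had medians between −0.71 in Endo and −0.17 in microglia.

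**Figure D3:**
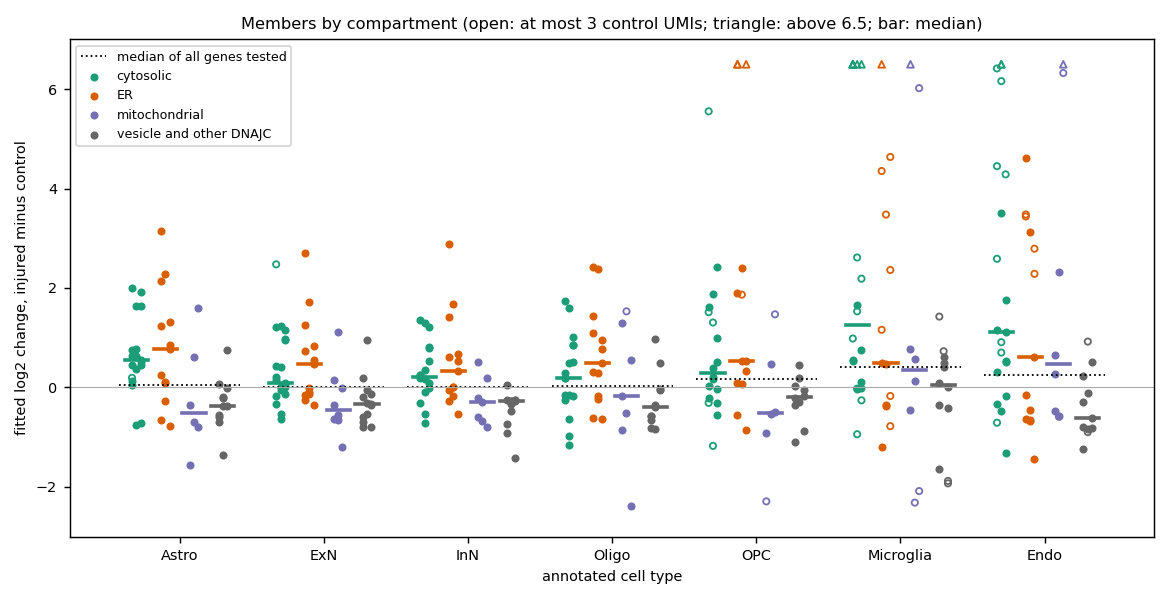
Log2 change, injured minus control, of the tested members by compartment in each cell type. Each point is a member, bars are medians, dotted lines are the median of all genes tested, open points rest on at most 3 control UMIs and triangles lie above the axis limit of 6.5. ER medians lie above cytosolic medians in 5 types and below them in microglia and Endo.

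Summed over all members, the level of chaperone RNA lay closer to the control than that of the leading genes. Astro had 2643.7, 3178.5 and 2518.0 CPM in the injured libraries against 2427.4, and Endo had 4225.8, 4780.3 and 3751.3 CPM against 2778.1. The neuronal sums did not lie above the control on average, with 2782, 2877 and 2805 CPM in ExN against 2883 and 2805, 2988 and 2873 in InN against 2968.

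Several members, most of them cytosolic, were uneven among the injured animals. *HSP90AA1*, *HSPA8*, *DNAJA1*, *HSPD1*, *DNAJA4* and *DNAJB6* were highest in injured replicate 2 in 7 of 7 cell types. The level of *HSP90AA1* in replicate 2 was a median 2.80 times the mean of the other injured libraries over the cell types (range 1.57 to 4.23). The corresponding medians were 2.22 (1.46 to 3.38) for *HSPA8*, 1.97 (1.40 to 2.48) for *DNAJA1* and 1.60 (1.10 to 2.44) for *HSPD1*. They were 1.37 (1.08 to 2.48) for *DNAJA4* and 1.23 (1.09 to 1.62) for *DNAJB6*. *HSPH1* was highest there in 6 types, with a median of 1.45 (1.04 to 2.42), whereas *DNAJB1*, also cytosolic, was highest there in 4 types, with a median of 1.17 (0.819 to 2.53). Among ER genes the medians were 1.20045 (0.906 to 1.73) for *HSP90B1*, 1.16 (0.79 to 1.58) for *DNAJB11*, 1.10 (1.04 to 1.90) for *HSPA5* and 0.925 (0.718 to 1.06) for *DNAJB9*. Mitochondrial *HSPA9* had 0.937 (0.882 to 1.15). In the other direction, *DNAJC12*, *DNAJC17*, *DNAJB5*, *DNAJC30*, *DNAJC27* and *HSPB11* were highest in replicate 2 in 0 types. Their medians were 0.78, 0.80, 0.81, 0.84, 0.85 and 0.86. The scarce *DNAJC22* was also highest there in 0 types. *DNAJC12*, *DNAJC17* and *DNAJC27* are cytosolic or nuclear but lie outside the cytosolic set used for the shares below. The points share 1 animal and 1 preparation, so the 7 cell types are not separate observations of it.

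Of the tested cytosolic members, the share that was highest in replicate 2 was 78.9% in Astro, against 33.9% of all genes, and 52.4% in ExN (27.9%), 57.9% in InN (29.0%), 52.9% in Oligo (36.2%), 61.1% in OPC (36.2%), 60.0% in microglia (35.1%) and 57.1% in Endo (29.9%). Of the 13 ER members the share was 38.5% in Astro, 30.8% in ExN, 46.2% in InN, 30.8% in Oligo, 61.5% in OPC, 61.5% in microglia and 30.8% in Endo, so it was below the cytosolic share in 5 types and not in OPC or microglia. Immediate early genes, which respond to handling as well as to activity, were also highest in replicate 2 in Astro, ExN, OPC, microglia and Endo, with summed levels in Astro of 97.6, 115 and 81.7 CPM against 37.0 in the control and in Endo of 196, 301 and 172 against 34.3. Their part in the chaperone levels was not tested.

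**Figure D4:**
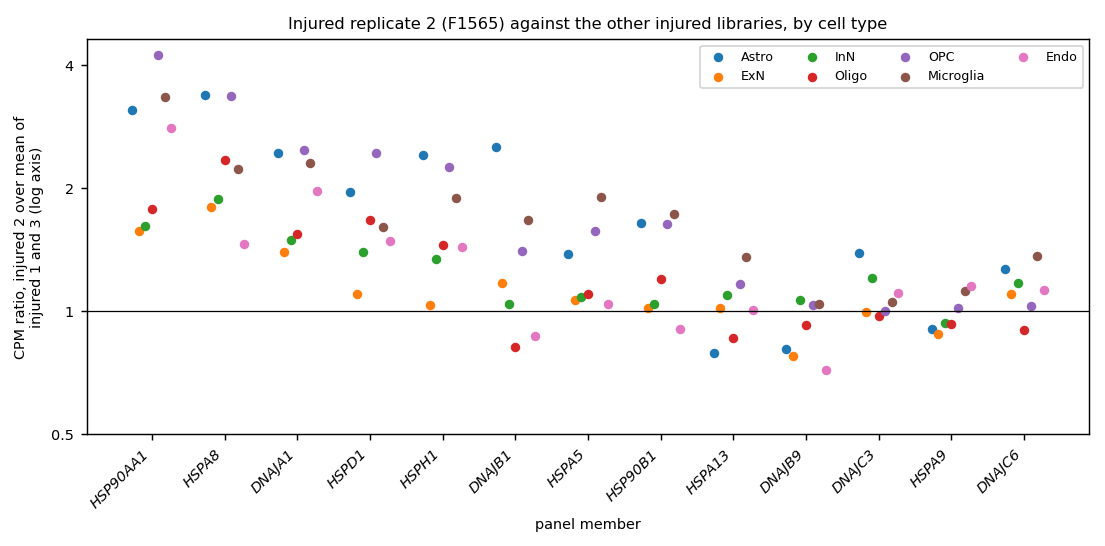
Level of 13 members in injured replicate 2 divided by the mean of the other injured libraries (log axis), 1 point per cell type. *HSP90AA1*, *HSPA8*, *DNAJA1* and *HSPD1* lie above 1 in all 7 types with medians of 1.60 to 2.80. *HSPH1* and *HSPA5* also lie above 1 throughout, with medians of 1.45 and 1.10, and *DNAJB9* and *HSPA9* lie on both sides of 1.

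Other measures also moved with the cohorts. Ribosomal protein transcripts, a sign of cytoplasmic RNA in nuclear preparations, made up 0.37%, 0.30% and 0.33% of UMIs in the injured libraries and 0.17% in the control. In Endo the shares were 1.28%, 0.83% and 1.07% against 0.14%, whereas in Astro they were 0.21%, 0.19% and 0.18% against 0.14%. The 4 microglial markers listed for both cohorts summed to 180.3 to 266 CPM in injured Astro against 90.2 in the control, 232 to 308 against 75.2 in Oligo and 402 to 742 against 206 in Endo. In neurons they were 129 to 219.6 CPM against 61.5 in ExN and 129.7 to 209 against 62.9 in InN. Within microglia the same sum was 2452 to 2710 CPM against 1784, and its 4 genes went different ways there. Over all injured microglia *CD74* had 1169 CPM against 8.03 in the control. *P2RY12* had 160 against 233, *GPR34* 32.0 against 289 and *DOCK8* 1175 against 1253. Endothelial markers in Astro were 285 to 418 CPM against 113. They were 3404 to 4096 CPM in injured Endo against 848, and there astrocyte markers were 356 to 529 against 1171 and excitatory neuron markers 1995 to 2600 against 1210.2. In microglia endothelial markers were 142 to 172 CPM against 570.5. The part of these in the changes of *HSPA5*, *HSP90B1*, *HSPH1* and the other members was not tested.

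Whether the change differed between cell types was tested on 54 members in a fit over all 28 sums with library as a block. *DNAJB14* (adjusted p = 0.00665) and *HSPB11* (adjusted p = 0.00124) differed between types, against 6.64% of all genes tested. *HSPA12A* passed the wider limit (0.0188). For *DNAJB14* the fitted change was between 0.48 and 0.85 in 6 types and rested on 1 control UMI in microglia, and for *HSPB11* Endo lay below 0 and Astro above it. Neither call held when any 1 injured animal was left out: without replicates 1, 2 and 3 the adjusted p was 0.0306, 0.0969 and 0.0270 for *DNAJB14* and 0.0127, 0.0380 and 0.0187 for *HSPB11*.

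Glia (Astro, Oligo, OPC and microglia) against neurons (ExN and InN) gave 0 members with a different change, against 1.6% of genes, and 10 members at an unadjusted p below 0.05, each with the more positive change in glia, which can also be a smaller fall. This was 18.5% of the tested members, beside 19.6% of all genes (14.3% with the more positive change in glia). Of the 10, *DNAJA3*, *DNAJB9* and *DNAJB11* had 0 control UMIs in OPC or microglia. At the wider limit 1 member passed, against 5.52% of genes. *HSPA5* differed by 0.14 on the log2 scale between them (adjusted p = 0.92) and *HSP90B1* by 0.92 (adjusted p = 0.139).

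Levels, as opposed to changes, differed between neurons and glia within the injured cohort. A log2 difference beyond 1 with an adjusted p below 0.01 was found for 3 of 53 tested members, against 30.5% of all genes (16.3% with the higher level in neurons). *HSPA5* averaged 71.0, 77.9 and 73.7 CPM in the neurons of injured replicates 1, 2 and 3 and 185, 292 and 199 in their glia, a difference of −1.54 ± 0.12, and the control library had 11.4 and 38.4. *DNAJB4* had 16.4, 23.1 and 17.1 CPM in neurons and 39.7, 41.4 and 36.7 in glia (−1.03 ± 0.08), with 22.3 and 40.3 in the control. *HSPA12A* was higher in neurons, with 180.4, 173 and 190.4 CPM against 35.9, 40.0 and 42.5 in glia (2.76 ± 0.09), and with 203 against 27.5 in the control. Neuronal and glial values did not overlap for any of the 3, and the control library had the same order. *DNAJB4* lay at the limit and was lost without replicate 1 or replicate 3, and in the latter case *DNAJC3* passed instead.

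**Figure D5:**
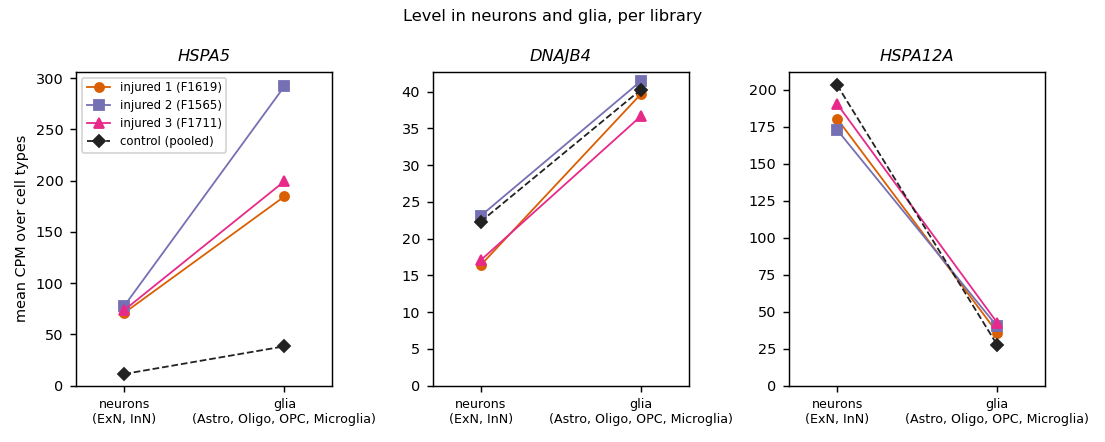
Mean level in CPM (linear axis from 0) of *HSPA5*, *DNAJB4* and *HSPA12A* over neurons and over glia, 1 point per library. *HSPA5* and *DNAJB4* are higher in glia and *HSPA12A* in neurons in all 4 libraries.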

How the data were processed

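Nuclei of marmoset V1 were profiled by 10x single-nucleus RNA-seq. The deposited values are counts: the authors aligned the reads with Cell Ranger 3.1.0 to the marmoset genome, removed nuclei by their own limits and annotated cell types in Seurat, and deposited whole-number UMI counts per gene and nucleus. UMIs were summed per library and annotated cell type. Injured and control sums were compared in each type with edgeR 4.0.16 (R 4.3.3; filterByExpr, TMM, quasi-likelihood test) on 3 against 1 library, with p-values adjusted over all genes tested. With 1 control library the spread comes from the injured libraries. Standard errors are of the fitted log2 change, counting intervals are exact 95% intervals that cover counting error only, and totals per library are given with the results. Differences between cell types were tested with library as a block over 28 sums, and levels over 21 injured sums. DESeq2 1.42.0, other scalings, no filter, thinning to 1000 UMIs, at most 2500 genes per nucleus and leaving out each injured replicate were tried.

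Members and gene lists were chosen with earlier results of these data known. Named members were a panel of main chaperones of each compartment (13 listed), every called member, and the 3 largest rises and falls in each cell type among members with more than 3 UMIs in each cohort and 1 direction in all injured libraries, 33 in all. Other members given with values, such as those passing the 0.05 limit alone, were chosen after their values were seen. The edgeR steps were tested on simulated data. No genome or sequence table was used, so neither coordinates nor sequences are given.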

Additional observations from a re-analysis of the deposited data

Results flagged for a closer look

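The injured-to-control change differed between cell types for 2 of 54 tested members, against 6.64% of all genes tested. *DNAJB14* had an adjusted p of 0.00665 and *HSPB11* one of 0.00124 in the test over all 7 types, and neither stayed below 0.01 without any 1 of the injured animals.

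Signal also appeared in genes outside the comparison, which were listed for the injured cohort and not for the control. *HSPA2*, an HSP70 gene best known from the testis, had 0.353 CPM over the injured cohort (45 UMIs), with 0.364, 0.472 and 0.210 CPM in injured replicates 1, 2 and 3. *HSPB3*, a small heat shock protein of muscle, had 0.259 CPM (33 UMIs), with 0.420, 0.123 and 0.279 CPM. The level that 3 UMIs would give in the control library was 0.131 CPM, which *HSPB3* in replicate 2 did not reach. No fold is given, since being unlisted was no sign of a low count: 538 genes not listed for the control had over 100 injured UMIs.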

How the results depend on the processing

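The 48 combinations of member and cell type past the 0.05 limit were refitted under 10 alternatives. They were chosen for their change, so their constant direction is no sign of stability, and 26 values lost a call at 0.01 and 42 gained one. No paired analysis was possible because replicate numbers are accession order and the control is 1 library. At an adjusted p limit of 0.05 the numbers of called members were 4 in Astro, 15 in ExN, 10 in InN, 4 in Oligo, 1 in OPC, 1 in microglia and 13 in Endo, against 1, 6, 3, 2, 0, 0 and 5 at 0.01, and 1 against 0 for glia against neurons. DESeq2 called 2 in Astro, 10 in ExN, 4 in Oligo, 2 in microglia and 3 in Endo, while its calls over all genes went from 187 to 340 in Astro, 582 to 1193 in ExN, 90 to 204 in Oligo and 0 to 303 in microglia, and from 816 to 743 in Endo. Scaling by library size alone left 3 in ExN, and no filter on low counts gave 2 in Astro. Thinned to 1000 UMIs, the counts were 2 in ExN, 0 in InN and 3 in Endo. *HSPA5* was among the neuronal calls lost, through the requirement of a UMI in 10% of nuclei, with adjusted p-values of 7.68e-05 in ExN and 9.12e-05 in InN. Nuclei with at most 2500 genes gave 2 in Astro and 3 in ExN. Leaving out an injured animal gave 1 to 4 in Astro, 2 to 8 in ExN, 2 to 9 in InN, 0 to 3 in OPC, 0 to 2 in microglia and 3 to 12 in Endo. These counts moved with the calls over all genes where those are given above. The counts by scaling, filter, thinning and the limit of 2500 genes have no count over all genes beside them. The 2 members that differed between cell types became 1 with RLE factors, 1 without the filter, 0 thinned, 1 at most 2500 genes and 0 without any injured animal. The 3 members that differed in level between neurons and glia were 2 without replicate 1 and 2 thinned, and still 3 without replicate 3, where 2 of them were shared. Cytosolic minus ER was −0.25 in ExN and 0.33 in microglia with at most 2500 genes, −0.20 in Oligo without the filter, 0.0908 in Oligo and −2.58 in microglia when thinned, and 0.16 in microglia by DESeq2. Without single animals it ranged from −0.42 to 0.21 in Astro, −0.17 to −0.00077 in InN, −0.32 to −0.18 in Oligo, −0.47 to −0.31 in OPC, 0.40 to 0.94 in microglia and 0.32 to 0.67 in Endo. The causes were not tested. Thinning left 37 microglial, 80 OPC and 85 endothelial control nuclei, the lowest numbers among the cell types.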
